A study of Mus musculus with 18 samples.

Results

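The comparison described here is that of LNA1 with the non-targeting control ctrlA in brown adipocytes stimulated with isoproterenol. It rests on the 3 LNA1_iso and the 3 ctrlA_iso libraries with the replicate numbers 2, 3 and 4, that is 6 of 18 libraries, chosen by the LNA and the stimulation in their labels and paired by number. All 6 came from wt1-SAM, a single immortalised line of mouse brown preadipocytes that also carries the SAM machinery for CRISPR activation. The cells of every group were differentiated in medium with rosiglitazone, reverse transfected on day 4 with 1.4 µl of a 10 µM LNA per 500000 cells and harvested on day 7, and both groups received 1 µM isoproterenol for the last 24 h. Polyadenylated RNA was sequenced. The 6 unstimulated libraries of ctrlA and LNA1 (ctrlA_ctrl and LNA1_ctrl) and the 3 stimulated libraries of LNA2, a different LNA against the same transcript, were compared with them to place the result. All 18 libraries, the 3 unstimulated ones of LNA2 included, entered the fit and so share in its estimate of the spread and in the p-values. Whether libraries of a group came from separate cultures is not stated in the labels, so p-values measure the spread between these libraries, which may be technical.

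An LNA gapmer is an antisense oligonucleotide with a central stretch of DNA between flanks of locked nucleic acid. It pairs with a complementary RNA, and RNase H1 then cleaves the RNA strand of the hybrid, in the nucleus as well as in the cytoplasm. Pairing over part of its length can also occur, which is why such experiments usually compare several LNAs against the same transcript. Isoproterenol activates β-adrenergic receptors, which in brown adipocytes raises cAMP, starts lipolysis and induces Ucp1, the uncoupling protein that lets mitochondria release energy as heat. LNA1 was designed against Gm15551, a long non-coding RNA enriched in adipose tissue.

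The LNAs are shown because the identity of the oligonucleotide is what separates the groups. They are written 5′ to 3′ as DNA bases, as the study lists them.
Negative control A: aacacgtctatacgc
LNA1: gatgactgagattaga
LNA2: aagtagcacggcgttg
LNA1 has 16 bases and Negative control A has 15. In the 535-base Gm15551 transcript of GENCODE M21 the site fully complementary to LNA1 covers bases 347 to 362, in exon 2 of 2. The capitals mark the bases that pair.
LNA1 site in Gm15551: TCTAATCTCAGTCATC
LNA2 site in Gm15551: CAACGCCGTGCTACTT
The LNA1 site lies at chr3:126667502-126667517 and the LNA2 site at chr3:126667608-126667623, both on the minus strand of GRCm38. The longest stretch of Gm15551 complementary to Negative control A was 7 bases.

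The 6 libraries held 9582344 to 15390993 counts, with 21550 to 23117 genes detected, and a floor of 3 counts corresponded to 0.193 to 0.306 CPM (the usual depth-scaled count, here with TMM scaling). Libraries with the number 2 stood apart in both groups. Mitochondrial genes took 8.9% of the counts in ctrlA_iso replicate 2 and 9.79% in LNA1_iso replicate 2, against 3.67 to 4.51% elsewhere. For CT010467.1, a gene of ribosomal RNA, the shares were 3.61% and 7.44%, against 0.38 to 1.04%. The libraries were paired by replicate number, so results are given from a fit with that number as a block. What the fit without it gave is stated beside the calls, since most of them were lost there. The stimulation was visible with either LNA. Ucp1 averaged 1.33 ± 0.19 CPM in ctrlA_ctrl and 15.1 ± 1.7 CPM in ctrlA_iso, and 1 ± 0.341 CPM in LNA1_ctrl and 12.3 ± 1.63 CPM in LNA1_iso (SD, n = 3 each).

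The targeted transcript was looked at first. Gm15551 (ENSMUSG00000086679.2, chr3:126667329-126669044, minus strand) is an antisense gene within Camk2d. It had 9, 2 and 2 counts in ctrlA_iso replicates 2, 3 and 4 and 1, 4 and 1 counts in LNA1_iso, so the groups overlapped and 4 of the 6 values did not exceed 3 counts. The means were 0.339 ± 0.301 and 0.153 ± 0.12 CPM (SD, n = 3 each), and the level was lower with LNA1 in 2 of 3 pairs. The fitted log2 fold change without a filter on low counts was -0.90 (SE 0.785, edgeR adjusted p 0.955). With 13 counts in all with ctrlA and 6 with LNA1, a fall of Gm15551 was not detected. How large a fall could be detected at this depth was not tested. With 1 library left out, the log2 fold change ran from -1.97 to -0.07. An exact two-sided permutation test gave p = 0.5, but its 20 arrangements ignore the pairing and allow no p below 0.1, so nothing is drawn from it.

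Genes around the locus were examined because antisense transcripts can act on their neighbours. Of 45 annotated genes within 1 Mb on either side, 5 were expressed enough to be tested and 0 were called. Of all tested genes 1.45% were called, so 0 of 5 says little about the neighbours. Camk2d, the calmodulin-dependent kinase gene that contains Gm15551, had 90.5, 106 and 96.6 CPM in ctrlA_iso and 102, 100 and 112 CPM in LNA1_iso. These values overlapped, and the log2 fold change was 0.10 (SE 0.0705, edgeR adjusted p 0.531). The log2 fold changes of the other 4 were -0.28 for Arsj, -0.36 for Ank2, -0.06 for Larp7 and -0.18 for Zgrf1, with edgeR adjusted p values of 0.436 to 0.872. At an unadjusted p of 0.05 none of the 5 passed either, the smallest p being 0.105.

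Across the transcriptome, more genes were called higher than lower with LNA1, but not among those over 20 CPM in ctrlA_iso. With a limit of 0.05 on the edgeR adjusted p and of 0.5 on the absolute log2 fold change, 217 of 14949 tested genes (1.45%) were called, 168 higher (1.12%) and 49 lower (0.328%). The called rises had a median log2 fold change of 1.09, and 93 of 168 exceeded 1. The called falls had a median of -0.61, and 4 of 49 exceeded 1 in size. The median level in ctrlA_iso was 3.21 CPM for the genes called higher, 24.1 CPM for those called lower and 21 CPM for all tested genes. Under 1 CPM in ctrlA_iso were 44 of the 168 and 0 of the 49. Of the called genes with over 20 CPM there, 23 were higher and 26 lower. The starting levels, the counts per direction and the sizes of change are a description only. A gene that is low with ctrlA can pass the filter on low counts through the group where it is high. A fall from a low level can hardly be called. Sizes at matched levels were not compared. The median log2 fold change of all tested genes was -0.0169. The values of the groups did not overlap for 111 of the 168 genes called higher and 25 of the 49 called lower, and for 7.53% of all tested genes.

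The number of calls depended on the pairing and on single libraries. Without the replicate block edgeR called 2 genes, Sh3d21 and the poorly described D130043K22Rik, while 571 genes had an unadjusted p under 0.05. With the block, the count was 83 without ctrlA_iso replicate 3, 86 without ctrlA_iso replicate 4, 77 without LNA1_iso replicate 3, 97 without LNA1_iso replicate 4, and 68, 66 and 10 without all libraries numbered 2, 3 and 4. With the 6 libraries alone and the block 286 genes were called, 191 of them among the 217.

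**Figure D1:**
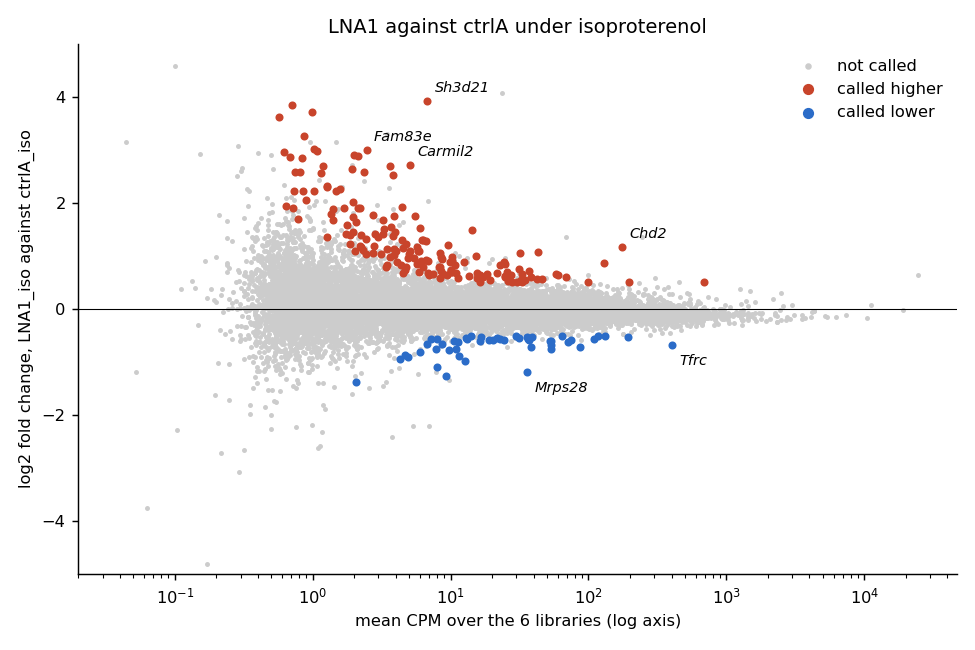
The log2 fold change of LNA1_iso against ctrlA_iso (vertical axis) is plotted against the mean CPM over the 6 libraries (horizontal log axis), with each point a tested gene, red for called higher, blue for called lower and grey for not called. Red points reach beyond 2 at low CPM and blue points stay mostly between -0.5 and -1; 23 genes, 1 of them called, lie outside the axes.

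The largest rise among called genes that met 3 further conditions (a mean of at least 1 CPM, no overlap between groups, 3 pairs in the same direction) was that of Sh3d21 (chr4:126150602-126163491, minus strand), which encodes a protein with SH3 domains. Its values were 0.304, 1.16 and 0.919 CPM in ctrlA_iso replicates 2, 3 and 4 and 6.57, 13.2 and 18.6 CPM in LNA1_iso. Every LNA1_iso library was above every ctrlA_iso library, and the lowest values of both groups were those of replicate 2. The fitted difference was 15.2-fold (log2 fold change 3.93, SE 0.252, edgeR adjusted p 7.81e-07). Without the block it was still called (adjusted p 0.0247), whereas with the 6 libraries alone and no block it was not (adjusted p 0.597). D130043K22Rik, the other gene called without the block, had 0.228, 0.0643 and 0.102 CPM in ctrlA_iso and 1.33, 1.96 and 2.23 CPM in LNA1_iso. It was named after its values were seen. Its call was lost with the 6 libraries alone and no block (edgeR adjusted p 0.597). With the block it was lost without all libraries numbered 3 (0.0725) and without all numbered 4 (0.126).

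Fam83e (chr7:45721212-45729492, plus strand) encodes a member of the FAM83 family, whose proteins bind casein kinase 1. It had 0.532, 0.193 and 1.02 CPM in ctrlA_iso and 3.37, 5.09 and 4.61 CPM in LNA1_iso. The groups did not overlap, and LNA1_iso replicate 2 was the lowest of its group. The fold was 7.96 (log2 fold change 2.99, SE 0.452, edgeR adjusted p 0.0025). The call was lost without the block (adjusted p 0.104), without all libraries numbered 2 (0.071) and without all numbered 4 (0.0642).

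The other 10 of the 12 largest rises were of genes with diverse functions that were barely expressed with ctrlA. Of signalling genes, Fes, a non-receptor tyrosine kinase, rose from 0.304, 1.35 and 1.33 CPM to 3.82, 6.76 and 8.1 CPM (log2 fold change 2.70, edgeR adjusted p 2.27e-05). Sh2d5, which encodes an SH2 domain protein, rose from 0.912, 1.09 and 1.33 CPM to 3.99, 7.35 and 8.34 CPM (2.52, adjusted p 0.000244). Fgf22, a fibroblast growth factor, rose from 0.152, 0.386 and 0.408 CPM to 0.799, 2.47 and 2.62 CPM (2.57, adjusted p 0.0086). In these 3 genes no LNA1_iso value reached down to the ctrlA_iso values, and LNA1_iso replicate 2 was again the lowest of its group.

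Of genes for actin-binding and contractile proteins, Carmil2, a regulator of actin capping, rose from 0.988, 1.42 and 1.43 CPM to 3.99, 11.7 and 11 CPM (log2 fold change 2.72, edgeR adjusted p 3.6e-05). Avil, the villin family member advillin, rose from 0.152, 0.643 and 0.817 CPM to 1.95, 3.49 and 4.45 CPM (2.65, adjusted p 0.0023). Ttn, the giant sarcomere protein titin, rose from 0.456, 0.708 and 0.817 CPM to 1.86, 5.75 and 4.53 CPM (2.58, adjusted p 0.00286). Skeletal muscle markers were examined beside Ttn. Of 9 listed, 2 were expressed enough to be tested, 0 were called, their summed level was 10.6 to 15.3 CPM with ctrlA and 10 to 12.7 CPM with LNA1, and Myod1, Myf5, Myh1 and Mymk were at 0 in all 6 libraries. Carmil2, Avil, Ttn, Fgf22 and Lsmem1 overlap exons of a gene on the opposite strand (Acd, Tsfm, Gm13938, Rnf126 and Gm17056), and Sh2d5 those of Kif17 on its own strand, so that their counts are uncertain.

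The remaining rises were those of Lsmem1, which encodes a single-pass membrane protein, of Hsf5, a member of the heat shock factor family, of Plac8, a small cysteine-rich protein, and of Ephx3, an epoxide hydrolase. Their log2 fold changes were 3.02, 2.98, 2.90 and 2.88, with edgeR adjusted p values of 0.0178, 0.00635, 0.00354 and 0.000782. Plac8 differed most between replicates, with 1.14, 0.129 and 0.102 CPM in ctrlA_iso and 7.81, 1.38 and 1.35 CPM in LNA1_iso, where the library numbered 2 was the highest of each group. Without the block, 11 of these 12 rises were not called in edgeR. Their adjusted p was then 0.0777 for Hsf5, Ephx3, Ttn and Sh2d5, 0.104 for Fam83e, 0.153 for Fes, 0.185 for Carmil2, Avil and Fgf22, 0.307 for Lsmem1 and 0.675 for Plac8. DESeq2 without the block kept the call of each of them except Plac8. With the block, the call of Lsmem1 was lost in each of the 6 fits with 1 library left out (adjusted p 0.0543 to 0.109) and under glmTreat, which tests against the fold limit (0.122), that of Fgf22 without replicates 3 or 4 of either group (0.0558 to 0.0797) and under glmTreat (0.0603), and that of Hsf5 without ctrlA_iso replicates 3 or 4 or LNA1_iso replicate 3 (0.0504 to 0.0618). In 3 of the 168 genes called higher the ctrlA_iso libraries held 3 counts or fewer in all, so their fitted fold is not a measure of size. The largest fitted value, 6.92 for the pseudogene Obox4-ps22, came from 41 counts in LNA1_iso replicate 2, with 0 counts in the other 5 libraries.

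**Figure D2:**
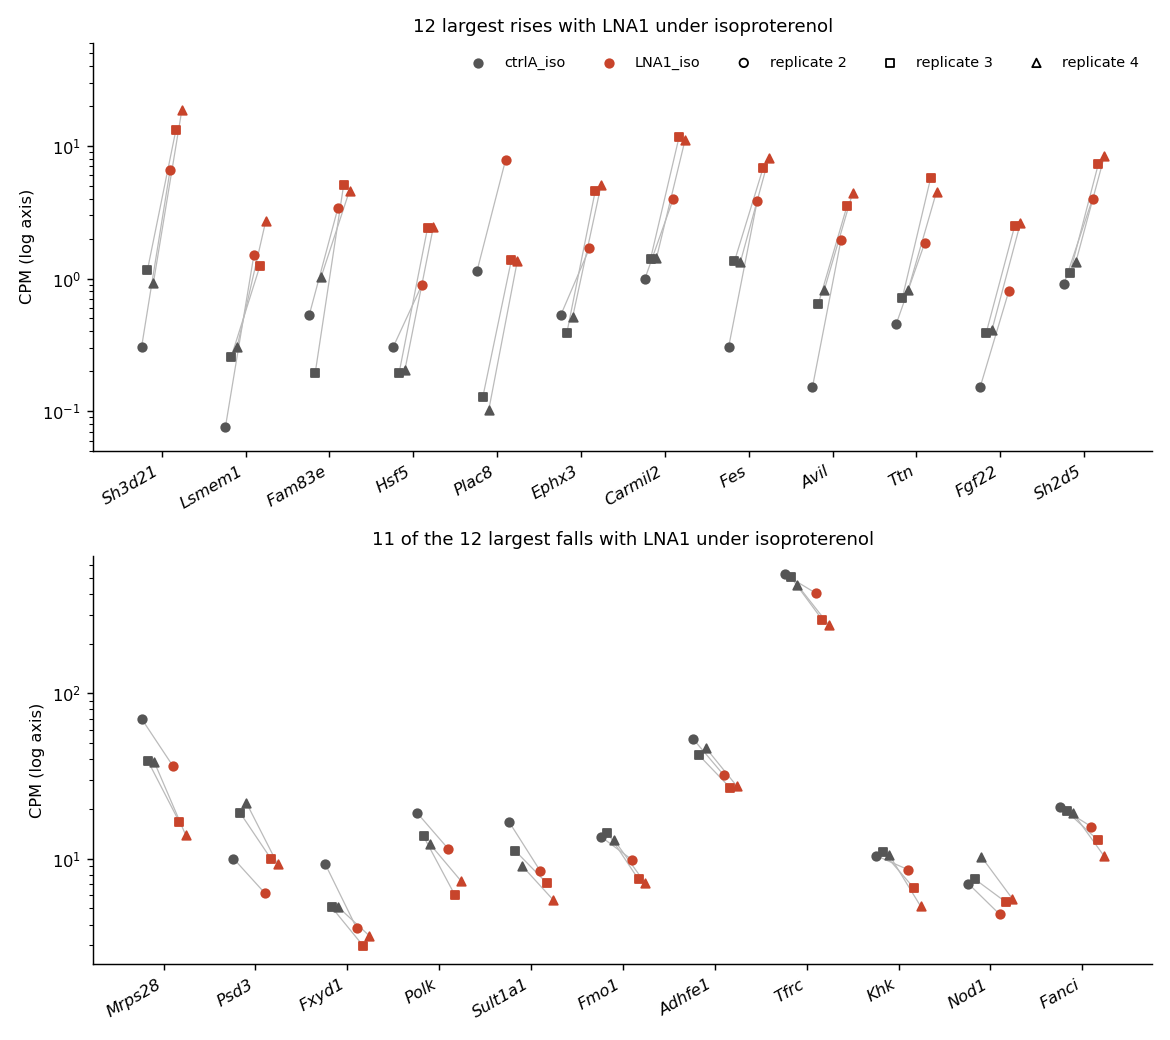
CPM on a log axis is shown for the 12 largest rises (top) and 11 of the 12 largest falls (bottom) among called genes with a mean of at least 1 CPM, groups that did not overlap and the same direction in all 3 pairs. Grey symbols are ctrlA_iso, red symbols LNA1_iso, symbol shapes the replicate numbers and lines the pairs. The lines rise in every top panel and fall in every bottom panel.

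The largest fall among called genes with at least 1 CPM and no overlap between groups was that of Mrps28 (chr3:8802146-8923918, minus strand), which encodes a protein of the small subunit of the mitochondrial ribosome. It had 70.3, 38.9 and 38.3 CPM in ctrlA_iso and 36.5, 16.7 and 13.9 CPM in LNA1_iso. Replicate 2 was the highest in each group, and the highest LNA1_iso value was below the lowest ctrlA_iso value. The level fell to 0.44 of that of ctrlA_iso (log2 fold change -1.19, SE 0.0939, edgeR adjusted p 5.7e-06). The call was lost without the block (adjusted p 1).

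Of the enzymes among the 12 largest falls, Adhfe1, a mitochondrial hydroxyacid-oxoacid transhydrogenase, fell from 53.4, 42.1 and 47 CPM to 31.9, 26.8 and 27.5 CPM (log2 fold change -0.72, edgeR adjusted p 0.000121). Khk, the ketohexokinase that phosphorylates fructose, fell by 0.66 on the log2 scale (adjusted p 0.0463), Fmo1, a flavin-containing monooxygenase, by 0.76 (0.0292) and Sult1a1, a phenol sulfotransferase, by 0.77 (0.0213). In these 4 genes the groups did not overlap. Without the block none of the 4 was called (adjusted p 0.14 for Adhfe1, 0.588 for Khk and 1 for Fmo1 and Sult1a1). With 1 library left out, the call of Adhfe1 was kept in all 6 fits. That of Khk was lost except without LNA1_iso replicate 2 (adjusted p 0.0826 to 0.238), that of Fmo1 except without ctrlA_iso replicate 2 (0.0727 to 0.188) and that of Sult1a1 except without ctrlA_iso replicate 2 or LNA1_iso replicate 4 (0.0647 to 0.102).

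Tfrc, the transferrin receptor through which cells take up iron, had the highest counts among these falls. It had 525, 503 and 452 CPM in ctrlA_iso and 404, 279 and 260 CPM in LNA1_iso, with LNA1_iso replicate 2 closest to the control values (log2 fold change -0.68, edgeR adjusted p 0.0178). Of the other falls, Psd3, an exchange factor for Arf GTPases, had a log2 fold change of -0.97 (adjusted p 0.0127), Fxyd1, the regulator of the sodium pump named phospholemman, of -0.90 (0.0184) and Polk, a DNA polymerase for translesion synthesis, of -0.88 (0.0113). Nod1, a cytosolic sensor of bacterial cell wall fragments, fell by 0.65 (0.0348) and Fanci, a DNA repair protein of the Fanconi pathway, by 0.61 (0.0086). Without the block these 6 genes were not called (adjusted p 0.479 to 1). With 1 library left out, the calls of Tfrc and Psd3 were lost without replicates 3 or 4 of either group (adjusted p 0.0611 to 0.114), that of Fxyd1 without ctrlA_iso replicates 2 or 4 or LNA1_iso replicates 2 or 3 (0.0649 to 0.13) and that of Polk without ctrlA_iso replicate 3 or LNA1_iso replicates 3 or 4 (0.059 to 0.089). That of Nod1 was lost without ctrlA_iso replicates 2 or 4 or LNA1_iso replicates 3 or 4 (0.156 to 0.187), and that of Fanci without ctrlA_iso replicates 3 or 4 or LNA1_iso replicate 4 (0.0595 to 0.0605). Exons of Fanci, Sult1a1, Psd3 and Adhfe1 overlap those of Polg, Sgf29, Gm15991 and 2610203C22Rik on the opposite strand, so that their counts are uncertain.

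Genes with high counts were listed separately, since the largest folds were found at low levels. The 5 called genes of each direction with the highest mean CPM were chosen after values were seen. Among the rises, Chd2, a chromatin remodelling ATPase, went from 80.9, 109 and 128 CPM to 155, 271 and 301 CPM, with no overlap (log2 fold change 1.17, SE 0.09, edgeR adjusted p 5.42e-06). Slc39a14, a transporter of zinc and iron, went from 80.6, 92.2 and 97.6 CPM to 143, 157 and 202 CPM, with no overlap (0.88, SE 0.0771, adjusted p 1.88e-05). The remaining 3 rises overlapped between groups and were small. They were those of Mt2, a metallothionein that binds zinc, at 0.52 (adjusted p 0.0192), of Dst, a linker of cytoskeletal filaments, at 0.51 (0.00313) and of Slc25a22, a mitochondrial glutamate carrier, at 0.51 (0.0124). Among the falls, next to Tfrc, stood Decr1 and Esrra, described with their lists, Nsd3, a histone methyltransferase, at -0.50 (0.00216) and Aldh1a7, an aldehyde dehydrogenase, at -0.57 (0.000964). Without the block none of the 10 was called (adjusted p 0.181 for Chd2, 0.121 for Slc39a14 and 1 for the others), while DESeq2 without the block kept Chd2 and Slc39a14. The calls of Chd2, Slc39a14 and Aldh1a7 were kept in each of the 6 fits with 1 library left out. That of Mt2 was lost except without ctrlA_iso replicate 2 (adjusted p 0.0541 to 0.143) and that of Slc25a22 without replicates 3 or 4 of either group (0.0671 to 0.0937). Dst without ctrlA_iso replicate 2 or LNA1_iso replicate 3, and Nsd3 without ctrlA_iso replicate 4 or LNA1_iso replicate 2, fell short of the fold limit alone. Exons of Chd2, Mt2, Dst and Esrra overlap genes on the opposite strand (Gm44686 for Chd2, Gm45774 for Mt2, A930005N03Rik and Gm26788 for Dst, Trmt112 for Esrra), and those of Chd2 also 1810026B05Rik on its own strand, so that their counts are uncertain.

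To find out whether the programme of the brown adipocyte moved with LNA1, lists of genes written from general knowledge were counted. Their counts stand beside the 1.12% of all tested genes called higher and the 0.328% called lower. Without the block 0 of the 11 list members called were called in edgeR (adjusted p 0.14 for Pdgfra, 0.831 for Polk and 1 for the others). Of 20 tested brown adipocyte and thermogenic genes 1 was called higher and 1 lower. At the adjusted p without the fold limit 1 was higher and 2 were lower. The median log2 fold change was -0.159 against -0.0169 over all tested genes. Irf4, a transcription factor of the thermogenic programme, had 2.2, 3.02 and 4.29 CPM in ctrlA_iso and 4.17, 5.17 and 7.31 CPM in LNA1_iso, higher in each pair while the groups overlapped (0.82, edgeR adjusted p 0.0362). Esrra, a nuclear receptor that drives mitochondrial genes, had 112, 158 and 189 CPM in ctrlA_iso and 73.4, 122 and 132 CPM in LNA1_iso (-0.51, adjusted p 0.0242). The call of Irf4 was lost in each of the 6 fits with 1 library left out (adjusted p 0.0633 to 0.208) and that of Esrra except without ctrlA_iso replicate 3 (0.0815 to 0.167). Ucp1 had 13.2, 15.5 and 16.5 CPM in ctrlA_iso and 10.5, 12.7 and 13.7 CPM in LNA1_iso. It was lower in each pair, but the groups overlapped and the difference was not called (-0.30, adjusted p 0.462).

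Of 28 tested general adipocyte genes 0 were called in edgeR, 1 passed the adjusted p without the fold limit, and the median was -0.124. Adipoq, the adipokine adiponectin, had 487, 351 and 309 CPM in ctrlA_iso and 424, 313 and 262 CPM in LNA1_iso (log2 fold change -0.20, adjusted p 0.23). Pparg, the master transcription factor of adipocytes, had 205, 142 and 149 CPM against 204, 127 and 139 CPM (-0.09, adjusted p 0.554). The groups overlapped for both genes. Of 27 tested genes of lipolysis and fatty acid oxidation 1 was called lower and 4 were lower at the adjusted p without the fold limit, and the median was -0.195. The called gene was Decr1, a mitochondrial reductase needed to oxidise polyunsaturated fatty acids, with 262, 214 and 202 CPM in ctrlA_iso and 196, 138 and 141 CPM in LNA1_iso (-0.53, adjusted p 0.00656). Its call was lost without ctrlA_iso replicate 3 (0.055).

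Among 37 tested genes of β-adrenergic and cAMP signalling, from receptors and adenylate cyclases to phosphodiesterases and early response genes, 1 was called higher and 0 lower, with a median of 0.00143. It was Nr4a1, an orphan nuclear receptor induced early by cAMP, with 13.7, 23.5 and 21.5 CPM in ctrlA_iso and 19.7, 37.6 and 33.4 CPM in LNA1_iso (log2 fold change 0.62, edgeR adjusted p 0.00589). It was higher in each pair, and the groups overlapped because both libraries numbered 2 were lowest. Its call was lost without LNA1_iso replicate 3 (adjusted p 0.0707). Of 22 tested calcium and calmodulin kinase genes 0 were called (median -0.0283, range -0.2367 to 0.4999), with Calm2, Calm3 and Atp2a2 between -0.07 and -0.03.

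Of 27 tested NF-κB and inflammatory genes 3 were called higher and 0 lower, where 1.12% and 0.328% of all tested genes were, with a median of 0.0608. Without all libraries numbered 4, and without the block, 0 were called. The called genes were secreted acute phase proteins. Saa3, a serum amyloid, rose from 3.65, 1.09 and 1.02 CPM to 8.43, 4.29 and 4.93 CPM (log2 fold change 1.75, edgeR adjusted p 0.00216), with no overlap. Serpina3n, a protease inhibitor, rose from 53.1, 16.1 and 17.1 CPM to 98.1, 35.8 and 40 CPM (1.08, adjusted p 0.000695). Hp, haptoglobin, rose by 0.51 (adjusted p 0.0372), a call that was lost in all single-library omissions but that of ctrlA_iso replicate 2 (adjusted p 0.059 to 0.191) and without the ribosomal RNA gene and mitochondrial genes. In all 3 genes the libraries numbered 2 were the highest of their group. The summed level of 10 macrophage markers was 25.9, 15.3 and 29.7 CPM in ctrlA_iso and 35.9, 24.1 and 33.4 CPM in LNA1_iso, higher in each pair. Of these markers 3 were tested and 0 called (Cd68, Cd14 and Csf1r at 0.40, 0.36 and -0.34), and Adgre1 was at 0 in 5 of the 6 libraries. Their part in the inflammatory values was not tested.

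Of 31 tested interferon response and nucleic acid sensor genes, which can react to transfected nucleic acid, 1 was called higher and 0 lower (median 0.113). This was Ifi27l2a, an interferon-inducible gene, with 6.69, 2.19 and 2.76 CPM in ctrlA_iso and 15.7, 6.4 and 6.04 CPM in LNA1_iso (log2 fold change 1.28, edgeR adjusted p 0.0113). Its call was lost without ctrlA_iso replicate 3 or LNA1_iso replicates 2 or 3 (0.0502 to 0.0785). Among 26 tested p53 targets, Polk was called lower and 0 were called higher (median -0.0865). Of 27 ER stress genes, 19 genes of RNase H, RNA decay and paraspeckles and 26 cell cycle genes 0 were called, with medians of -0.116, -0.0656 and -0.172. Examples are Hspa5, the chaperone BiP, at -0.11, Malat1, a nuclear RNA, at 0.20 and Top2a, topoisomerase of dividing cells, at -0.25.

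Of 24 tested preadipocyte and matrix genes 1 was called in each direction (median -0.0748). Pdgfra, a receptor of adipocyte precursors, had 7.37, 7.08 and 6.74 CPM in ctrlA_iso and 10.4, 16.4 and 13.3 CPM in LNA1_iso, without overlap (log2 fold change 0.91, edgeR adjusted p 0.00779). Its exons overlap Gm42802 and Gm42803 on the opposite strand, and its call was lost without ctrlA_iso replicates 3 or 4 or LNA1_iso replicate 3 (0.0576 to 0.0773). Postn, the matrix protein periostin, had 156, 58.5 and 36.9 CPM in ctrlA_iso and 119, 29.3 and 25.7 CPM in LNA1_iso (-0.63, adjusted p 0.0319), a spread between numbers far larger than the difference within pairs. Its call was lost except without LNA1_iso replicate 2 (0.0704 to 0.195). Of endothelial and neural or Schwann cell markers, 2 each were tested and 0 were called, and the endothelial marker Kdr was at 0 in all 6 libraries. The log2 fold changes of the endothelial markers Pecam1 and Vwf lay between 0.008 and 0.05. Those of the neural or Schwann cell markers, Ncam1 among them, ran from -0.37 to -0.08. In bulk RNA, fewer cells of a type and less RNA per cell cannot be told apart.

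**Figure D3:**
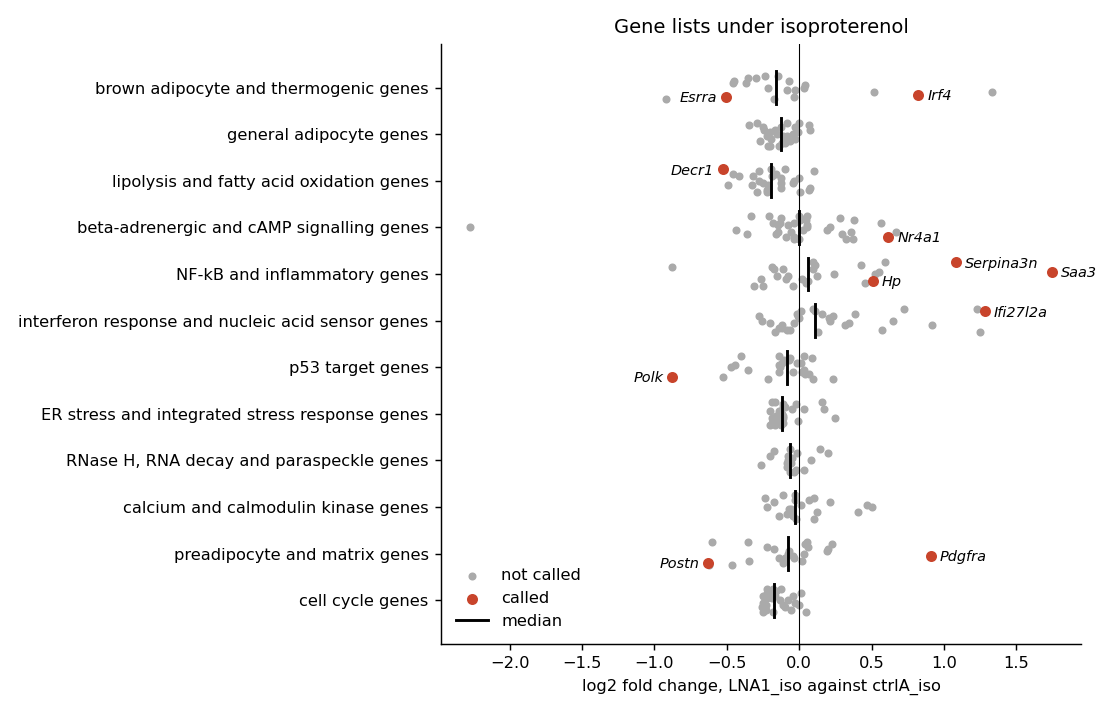
Each point is a tested gene of a list, placed by its log2 fold change of LNA1_iso against ctrlA_iso, grey when not called and red when called, and the black bar is the median of the list. The medians of the 12 lists drawn lie between -0.195 and 0.113, and the 11 called genes carry their names; the 4 short lists of markers of other cell types are not drawn.

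The same LNA was compared with its control in unstimulated cells, in libraries that share none with the stimulated comparison. There, 90 genes (0.602%) were called, 74 higher (0.495%) and 16 lower (0.107%). Without the block edgeR called 0 of them, with 427 genes at an unadjusted p under 0.05. Of the 168 genes called higher under isoproterenol, 166 had a positive log2 fold change in unstimulated cells, where 44.2% of all tested genes had one, and 56 were called higher there. Of the 49 called lower, 48 had a negative value, where 55.8% of all tested genes had one, and 9 were called lower. None was called in the opposite direction. The median log2 fold change of the genes called higher was 1.09 in stimulated and 0.761 in unstimulated cells, and that of the genes called lower was -0.61 and -0.41, where the stimulated values are those that chose the genes.

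In unstimulated cells Sh3d21 was higher with LNA1 by 3.19 (edgeR adjusted p 1.09e-05), Fam83e by 4.07 (0.00259) and Chd2 by 1.02 on the log2 scale (3.46e-05). Mrps28 fell by 0.92 (0.000145) and Polk by 0.81 (0.0338). Without the block none of these 5 was called in unstimulated cells (edgeR adjusted p 0.0825 for Sh3d21 and Fam83e, 0.479 for Chd2 and 1 for Mrps28 and Polk). Of genes that were not called in unstimulated cells, Nr4a1 had a log2 fold change of 0.62 with and 0.13 without isoproterenol, and Saa3 of 1.75 and 0.62. For Fxyd1 the values were -0.90 and -0.24, for Nod1 -0.65 and -0.13.

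A difference between both states was tested directly as an interaction. None of the 14949 tested genes passed an adjusted p of 0.05 in edgeR, with 393 genes at an unadjusted p under 0.05. With no filter on low counts edgeR called 82 of 35899 genes, 41 in each direction. DESeq2 with the block called 4, which were Gm12751, Rps6-ps4, Gm28437 and Gm45234, each with 0 counts in some libraries and an edgeR adjusted p of 1. The interaction p of Nr4a1 was 0.0143, of Saa3 0.00699 and of Adhfe1 0.00448, each with an adjusted p of 1. The smallest p belonged to Pgk1-rs7, Gm42546 and Gm20796 (7.44e-05, 0.000648 and 0.000825, adjusted p 1). Of these, Gm42546 had 80.7, 64.1 and 51 CPM in ctrlA_iso and 57.5, 37.3 and 29.9 CPM in LNA1_iso, and its log2 fold change was -0.67 with and -0.06 without isoproterenol. Pgk1-rs7 and Gm20796 were not called under isoproterenol, and the former was at 0 in 5 of the 6 stimulated libraries.

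**Figure D4:**
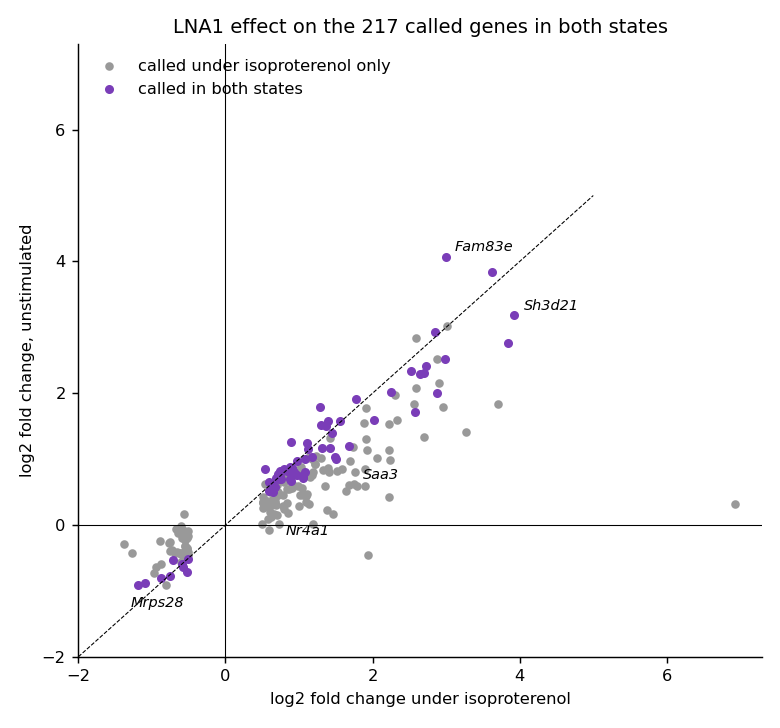
For each of the 217 genes called under isoproterenol, the log2 fold change of LNA1 against ctrlA in stimulated cells (horizontal axis) is plotted against that in unstimulated cells (vertical axis), purple where the gene was called in both and grey otherwise, with a dashed line of equal values. Nearly all points lie in the upper right or lower left quadrant, and the point at the far right is Obox4-ps22, whose value rests on 1 library.

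To see how far the result belonged to this LNA, LNA1 was set against LNA2 in stimulated cells. Between them 513 genes (3.43%) were called, 296 higher and 217 lower with LNA1, and without the block 28 were. Of the 168 genes called higher against ctrlA_iso, 65 were also called higher against LNA2_iso and 5 lower. Of the 49 called lower, 8 were also called lower and 0 higher. Both this comparison and that with ctrlA use the LNA1_iso libraries, so their calls are not independent and these overlaps are a description only. The 5 largest differences by the rule for named genes were those of Fam83e, Sh3d21, Hsf5, Plac8 and Lsmem1. In LNA2_iso replicates 2, 3 and 4 Sh3d21 had 1.14, 1.02 and 2.15 CPM, and LNA1_iso exceeded LNA2_iso by 3.12 on the log2 scale (edgeR adjusted p 8.23e-06). Fam83e had 0.38, 0.236 and 0.461 CPM in LNA2_iso, a difference of 3.60 (0.000497). For Hsf5, Plac8 and Lsmem1 the differences were 3.06 (0.00326), 3.02 (0.00158) and 2.67 (0.0154). Without the block Sh3d21, Fam83e and Hsf5 were still called between the LNAs (adjusted p 0.0204, 0.0204 and 0.0242), while Plac8 (0.372) and Lsmem1 (0.338) were not.

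Smaller differences were found for other members. Mrps28 had 55.9, 34.8 and 29.5 CPM in LNA2_iso, above the LNA1_iso value of the same number in each pair (log2 difference -0.90, edgeR adjusted p 8.42e-05). Sh2d5 and D130043K22Rik exceeded LNA2_iso by 0.97 (0.0281) and 1.55 (0.0348), and LNA2_iso in turn exceeded ctrlA_iso by 1.55 (0.00357) and 2.16 (0.0273). Ifi27l2a went the other way, with 23.8, 16.1 and 10.9 CPM in LNA2_iso, above LNA1_iso (-0.93, 0.0145). Without the block none of these 4 genes was called between the LNAs (adjusted p 0.313 for D130043K22Rik, 0.797 for Sh2d5 and 1 for Mrps28 and Ifi27l2a), nor Sh2d5 or D130043K22Rik between LNA2_iso and ctrlA_iso (0.253 and 0.176). For Pdgfra (9.78, 14.5 and 13.8 CPM in LNA2_iso) the LNAs did not differ by the test, with a difference of 0.08 (SE 0.155, edgeR adjusted p 0.805). Sult1a1, Fxyd1 and Fmo1 differed by -0.01, -0.02 and 0.06 (adjusted p 0.99, 0.973 and 0.882). They were also called lower in LNA2_iso against the same ctrlA_iso libraries (-0.76, -0.88 and -0.81, edgeR adjusted p 0.00806, 0.0075 and 0.00726). So were Adhfe1, Decr1 and Postn (-0.56, -0.58 and -0.805, adjusted p 0.000329, 0.00103 and 0.00283), which did not pass the test between the LNAs (0.221, 0.748 and 0.496). Without the block none of these genes was called with LNA2 (0.195 to 0.996).

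Because an LNA can pair with other RNAs over part of its length, the exons of 14936 tested genes were searched in the GENCODE M21 transcripts for the longest run complementary to LNA1. Non-coding transcripts of a gene were searched too, and introns only where an annotated transcript holds them. The share of genes called lower was 0.259% of 8881 genes with runs of 7 bases or fewer, 0.262% of 4201 with 8, 0.577% of 1387 with 9, 0.549% of 364 with 10, 2.41% of 83 with 11 and 15% of 20 with 12 or 13. For genes called higher the shares were 1.24, 0.881, 1.23 and 1.1% up to 10 bases, and 0 of 103 genes with longer runs were called higher. Runs of at least 9 bases to LNA1 were present in 30.6% of the genes called lower and in 12.4% of all, those to LNA2 in 4.08% and 4.2%, and those to Negative control A in 0% and 2.22%. Of the genes called higher, 12.5% held such runs to LNA1, 5.95% to LNA2 and 3.57% to Negative control A. The median length of the longest transcript was 2490, 3892, 4381, 4856, 4693 and 4895 bases in the same classes, and its part in the shares was not tested. The classes and the search with the other LNAs were set after values had been seen, and the counts are a description with no test.

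**Figure D5:**
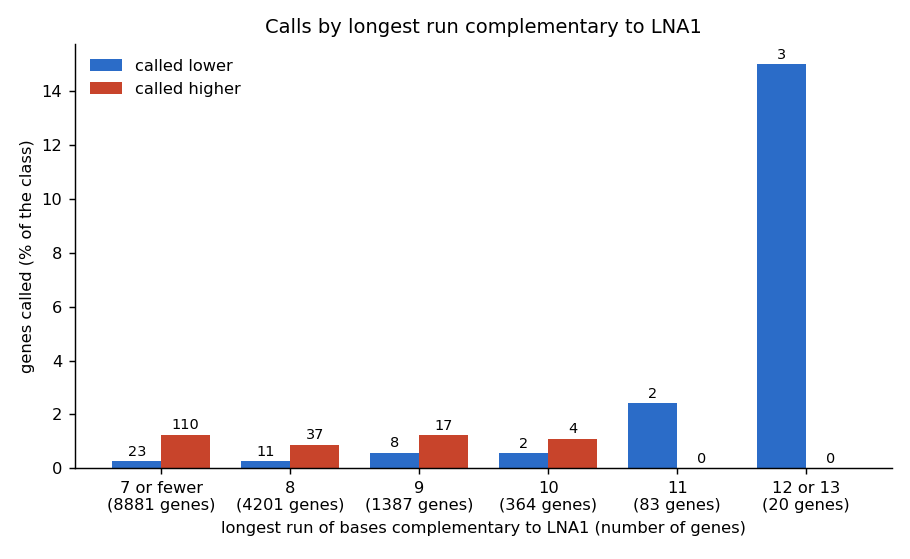
Bars give the percentage of tested genes called lower (blue) or higher (red) with LNA1 under isoproterenol in classes of the longest exonic run complementary to LNA1, with the number of called genes above each bar. Of the 103 genes with runs of 11 bases or more, 5 were called lower and 0 higher.

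The 5 genes called lower with runs of 11 bases or more are shown with their sites, written as the 16 transcript bases opposite LNA1, with the paired run in capitals.
Cenpl: caaAATCTCAGTCATC
Tfrc: cgccATCTCAGTCATC
Atp7a: tgtgATCTCAGTCATC
Arid1b: gtagcTCTCAGTCATC
St7: aCTAATCTCAGTttgc
The run of Cenpl, a kinetochore protein, covers 13 bases of coding sequence in exon 4 of 4 (chr1:161082918-161082930). That of Tfrc covers 12 bases of coding sequence in exon 9 of 19 (chr16:32619105-32619116). That of Atp7a, a copper-transporting ATPase, covers 12 bases of a non-coding transcript of the gene (chrX:106115272-106115283). Arid1b, a subunit of the SWI/SNF chromatin remodelling complex, and St7, a candidate tumour suppressor, have runs of 11 bases (chr17:5127232-5127242 and chr6:17835080-17835090), each in exon 3 of 3 of a non-coding transcript of the gene. The sites of 3 of the 5 genes thus lie in non-coding transcripts, whose share of the gene counts was not measured. Tfrc also holds a run of 11 bases complementary to LNA2, while the runs of the other 4 to LNA2 are of 7 or 8 bases.

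Cenpl had 14.1, 8.43 and 6.84 CPM in ctrlA_iso and 8.43, 5.24 and 3.81 CPM in LNA1_iso (log2 fold change -0.75, edgeR adjusted p 0.0163). Atp7a had 40.9, 35.6 and 34 CPM in ctrlA_iso and 30.8, 24.6 and 20.9 CPM in LNA1_iso (-0.55, 0.0106). Arid1b fell by 0.76 (0.00138) and St7 by 0.53 (0.0156), and both were also called lower in unstimulated cells (-0.78 and -0.71), there too not without the block (adjusted p 1 and 0.208). All 5 were lower with LNA1 in each pair, and the groups did not overlap for Tfrc, Atp7a and St7. Exons of St7 overlap Gm26738 on the opposite strand, so that its counts are uncertain. LNA1_iso was below LNA2_iso for Atp7a by 0.40 (0.0308) and for Arid1b by 0.50 (0.0101), neither without the block (adjusted p 1 for both). Of the pair only Arid1b was called, since Atp7a missed the fold limit, while Cenpl (-0.29, 0.279), St7 (-0.28, 0.13) and Tfrc (0.42, 0.0937) did not pass the test. Tfrc averaged 239 ± 95.6 CPM in LNA2_iso, next to 314 ± 78.1 CPM in LNA1_iso and 493 ± 37.6 CPM in ctrlA_iso (SD, n = 3 each).

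The call of each of these 5 genes was lost without the block in edgeR. In the fits with 1 library left out, that of Tfrc was lost without ctrlA_iso or LNA1_iso replicates 3 or 4, that of Cenpl without ctrlA_iso replicates 3 or 4 or LNA1_iso replicates 2 or 4, that of Atp7a without ctrlA_iso replicates 3 or 4 or LNA1_iso replicate 4 and that of St7 without replicates 3 or 4 of either group, with adjusted p values of 0.0554 to 0.114, while that of Arid1b was kept in all 6. No sign changed.

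Most genes with a long run were not called, which held for the tested genes in general. Of the 20 genes with 12 or 13 bases, 17 were not called and 3 (15%) were called lower, against 0.328% of all tested genes. The median log2 fold change of the 20 was -0.138, with 15 lower and 5 higher. It was -0.102 for the 103 genes with at least 11 bases, with 70 lower and 33 higher. For the 6055 with at least 8 bases it was -0.0143, with 3213 lower and 2842 higher. Ahcyl2, Mllt6, Prkd3, Rars and Srsf5, with runs of 11 bases, were lower at an edgeR adjusted p of 0.00741 to 0.0441 but missed the fold limit. Over all 14949 tested genes, 383 passed the adjusted p in either direction without the fold limit. In 7 of the 20 the run began at the first base of LNA1, and of these Cenpl, Tfrc and Atp7a were called, whereas Chd8, Crybg1, Nfil3 and Scn2a had log2 fold changes of 0.0026, -0.02, 0.18 and 0.80 (edgeR adjusted p 0.993, 0.976, 0.205 and 0.382). Counting mismatches over the full 16 bases, 20 tested genes had a site with 2 or fewer, of which Atp7a was called lower and 0 were called higher, with a median of -0.0324 against -0.0169 over all genes. With 3 or fewer mismatches there were 315 genes, 2.11% of all. Among them were 2 of the 49 genes called lower (4.08%) and 2 of the 168 called higher (1.19%). Of the 3 tested genes with a run of 12 bases to Negative control A, Nipal1 and Slc25a22 were called higher with LNA1 (1.17, adjusted p 0.0312, and 0.51, adjusted p 0.0124) and Arhgap26 was not called (0.42, adjusted p 0.233). Over all tested genes 1.12% were called higher. Of 331 genes with at least 9 bases to Negative control A, 6 were called higher, and of 65 with at least 10 bases, 2 were. For LNA2 against the same control the log2 fold changes were -0.03 for Nipal1 (0.959), 0.84 for Slc25a22 (0.000178) and -0.25 for Arhgap26 (0.369), in a comparison that shares the ctrlA_iso libraries. Neither Nipal1 nor Slc25a22 was called without the block, with LNA1 (adjusted p 1 for both) or with LNA2 (1 and 0.893). The call of Nipal1 was lost in each of the 6 fits with 1 library left out (0.0622 to 0.163) and that of Slc25a22 without replicates 3 or 4 of either group (0.0671 to 0.0937).
Nipal1: tCGTATAGACGTGag
Slc25a22: aaGTATAGACGTGTg
These sites are written as the 15 bases opposite Negative control A, with the paired run in capitals.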

How the data were processed

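Polyadenylated RNA of 18 libraries was prepared with NEBNext Ultra II and sequenced in paired ends. The authors trimmed the reads with cutadapt and quantified them with salmon on the Gencode M22 transcriptome; tool versions are not given in the sources used here. The deposited values are expected counts per gene in whole numbers, 54347 genes in all, and estimated counts of overlapping or near-identical genes are uncertain; whether the quantification used strand is not given in the sources used here.

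Counts were fitted with edgeR 4.0.16 (R 4.3.3, limma 3.58.1) by its quasi-likelihood test over all 18 libraries, with a term per group, the replicate number as a block, TMM scaling and filterByExpr (minimum count 10, total 15), with 10 residual degrees of freedom. P-values were adjusted by Benjamini-Hochberg over 14949 genes. A gene was called at an adjusted p under 0.05 and an absolute log2 fold change over 0.5. An SE is the absolute log2 fold change divided by the square root of F. The block was used because the comparison pairs the libraries by replicate number. Between ctrlA_iso and LNA1_iso, deviations from the group means correlated within each number (r = 0.71, 0.381 and 0.465 over 14949 genes). Each library correlated best with its own number. Between numbers 3 and 4, r was 0.34 and 0.272, near the 0.381 within number 3. Nothing in the labels says what a number stands for. The scripts were tested on simulated data. Alternatives were fits without the block, with 6 libraries, RLE size factors, DESeq2 1.42.0, no filter, glmTreat, without the ribosomal RNA gene and mitochondrial genes, and with libraries left out.

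Genes are named as the 12 largest changes in each direction among called genes with a mean of at least 1 CPM, no overlap between groups and 3 pairs in the same direction, with list members and other genes as stated; a few genes are not reported here. The members and lists were chosen with earlier results of these data known. Positions are from GENCODE M21 on GRCm38. LNA sites were found in its transcripts, and the LNA sequences are those the study lists.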

Additional observations from a re-analysis of the deposited data

How the results depend on the processing

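The count of 217 genes called with LNA1 under isoproterenol rested on the replicate block: 2 were called without it in edgeR, 50 without it in DESeq2, and 0 with the 6 libraries and no block, where 390 had an unadjusted p under 0.05. With the block the count was 457 with no filter on low counts, 28 when glmTreat tested against the fold limit, and 10 to 185 with libraries left out. It stayed within 1.5 times with RLE size factors (217), DESeq2 with the block (247), the 6 libraries with the block (286) and without the ribosomal RNA gene and mitochondrial genes (217). For the interaction, DESeq2 with the block called 4 genes and the fit with no filter 82, against 0. Between LNA1 and LNA2, 513 calls became 28 without the block, 103 with DESeq2 without it, 36 with glmTreat and 141 to 498 with libraries left out. Of 47 called genes that the sensitivity runs followed, 2 kept their call without the block, 16 with glmTreat, 7 without all libraries numbered 4 and 47 with RLE size factors or DESeq2 with the block; 0 changed sign. The log2 fold change of Gm15551 was -1.10 without the block and ran from -1.97 to -0.07 with libraries left out, not called in any.

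Signs changed only in genes that were not called. Pecam1 was at -0.033 with no filter and at -0.00058 without the ribosomal RNA gene and mitochondrial genes, and Vwf at -0.037 and -0.059 without the block in edgeR and DESeq2. With libraries left out, the log2 fold changes ran from -0.073 to 0.015 for Atp2a2, -0.13 to 0.073 for Calm3, -1.04 to 0.58 for Csf1r, -0.088 to 0.019 for Hnrnpk, -0.099 to 0.054 for Lpl, -0.27 to 0.22 for Pecam1, -0.02 to 0.14 for Scd1 and -0.42 to 0.92 for Vwf. The cause of these changes was not tested. Depth limits Gm15551 and the genes near 3 counts per library. Where a group is left with fewer libraries, the fit assumes that they vary like those of the other groups.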

Other observations

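For the genes called with LNA1 under isoproterenol, length was described too. The genomic span from the first to the last base of the gene had a median of 31 kb for the genes called lower, 15.8 kb for those called higher and 18.1 kb for all tested genes. Spans over 100 kb were held by 26.5% of the genes called lower (13 genes), by 9.52% of those called higher (16 genes) and by 10.3% of all. Protein-coding genes made up 91.8% of the genes called lower, 91.1% of those called higher and 82.9% of all tested genes. Exons of 16.3% of the genes called lower and 28.6% of those called higher overlapped a gene on the opposite strand, against 31.5% of all. The median length of the longest transcript was 3106 bases for the genes called lower, 3345.5 bases for those called higher and 3083 bases for all. These are descriptions with no test.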
